A study of Mus musculus with 4 samples.

Results

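The interferon-induced GTPases described here were 10 mouse genes, 6 of the immunity-related GTPase (IRG) family (Tgtp1, Tgtp2, Iigp1, Irgm1, Irgm2 and Igtp) and 4 of the guanylate-binding protein (GBP) family (Gbp2, Gbp3, Gbp6 and Gbp7), out of 54078 genes in the table. They were taken by gene symbol, and the set was put together after Tgtp1 had been seen at lower values in the knockout libraries. The difference between knockout and wildtype kidneys that chose them is therefore given as a description without a test. The kidneys came from adult male mice that had both renal pedicles clamped for 30 min and were killed at day 3 of reperfusion (bilateral I/R). WT mice were Apela flox/flox littermates without Cre, and Apela Ksp KO mice were Apela flox/flox mice with Ksp-Cre, in which Cre is driven by the Ksp-cadherin promoter of renal tubular epithelial cells and removes Apela, the gene of the peptide hormone Elabela, from tubules. All mice of both groups thus carried the floxed allele and were injured, and no uninjured library was analysed here. Each of the 4 libraries (WT1, WT2, KO1 and KO2) was a pool of kidney RNA from 3 mice, so that n = 2 pools per group and differences between single mice could not be seen.

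IRG and GBP proteins are large GTPases that cells make in response to interferons, above all interferon gamma (IFN-γ), and that assemble on the membranes of vacuoles holding intracellular pathogens. Promoters of interferon-induced genes are known for short elements called gamma-activated sites (GAS) and interferon-stimulated response elements (ISRE), and IRF1 is a transcription factor that IFN-γ induces and that binds ISRE. Within the IRG family, Irgm1, Irgm2 and Igtp are regulators that sit on the membranes of the cell and keep effector GTPases such as Iigp1 and Tgtp1 inactive there.

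The stretches before the start sites are shown first. Their letters were not used in the selection, but the members were taken as interferon-induced genes, whose promoters are known for ISRE and GAS. Several members are also close relatives of each other, so shared letters are no independent support. A promoter window from RefSeq (GRCm38.p6) was found for 8 of the 10 genes, and not for Iigp1 and Gbp6. The 250 bases before each start site were searched on both strands for an ISRE-like motif, spelled as GAAA, any 2 bases and GAAA again, and for a GAS-like motif, spelled TTCNNNGAA, which reads the same on both strands. Capitals mark the matches and the bases are written 5′ to 3′ on the strand of the gene.
Tgtp1, chr11:48992292-48992345, minus strand: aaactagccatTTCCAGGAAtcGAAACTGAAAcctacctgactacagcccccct
Tgtp2, chr11:49064251-49064304, minus strand: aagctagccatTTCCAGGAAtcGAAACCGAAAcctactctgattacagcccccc
Igtp, chr11:58199500-58199553, plus strand: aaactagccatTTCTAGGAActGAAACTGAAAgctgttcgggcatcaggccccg
Irgm2, chr11:58214891-58214944, plus strand: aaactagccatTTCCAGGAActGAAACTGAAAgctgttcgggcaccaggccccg
Irgm1, chr11:48871428-48871457, minus strand: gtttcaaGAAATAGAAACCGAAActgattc
Gbp2, chr3:142620594-142620623, plus strand: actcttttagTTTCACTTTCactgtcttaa
Gbp3, chr3:142559992-142560021, plus strand: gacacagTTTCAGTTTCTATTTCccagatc
Gbp7, chr3:142530261-142530314, plus strand: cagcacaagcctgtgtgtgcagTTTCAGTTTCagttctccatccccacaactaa

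All 8 genes held the ISRE-like letters, against 3.46% of the 27025 genes with a RefSeq window. The 5 IRG genes carried them on the strand of the gene, and the 3 GBP genes on the opposite strand. Irgm1 and Gbp3 held 2 overlapping matches, which fuse into 1 run of 16 bases in capitals. Gbp3 had a second RefSeq window, from a later start site, which held no match. In Tgtp1, Tgtp2, Igtp and Irgm2 a GAS-like match lay 2 bases before the ISRE-like match, and all 4 stretches had the same letters ctagccat in front of it. GAS-like letters were found in 5 of the 8 genes, Gbp7 being the fifth with 2 matches further from its start site, against 8.13% of all genes with a window. By the same search, ISRE-like letters were present in 7 of 15 type I interferon target genes with a window, in 3 of 14 IFN-γ target genes other than GTPases, in 4 of 8 relatives of the GTPase families, and in 0 of 9 ATG8 conjugation genes and 0 of 9 macrophage marker genes. GAS-like letters were present in 3 of the 15 type I targets, 1 of the 14 IFN-γ targets, 3 of the 8 relatives, 2 of the 9 genes of ATG8 conjugation and 0 of the 9 macrophage markers. A match is a run of letters only, and binding of any factor was not measured.

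**Figure D1:**
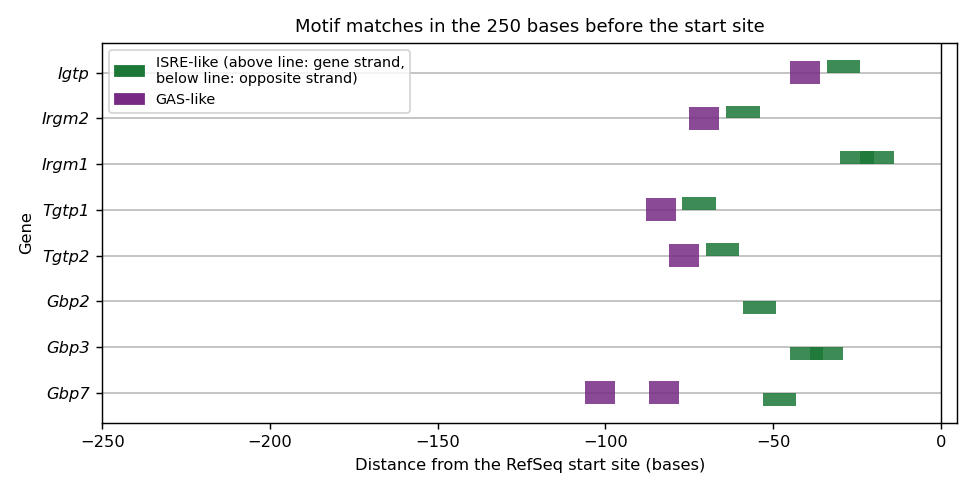
ISRE-like (green) and GAS-like (purple) matches in the 250 bases before the RefSeq start site of 8 interferon-induced GTPase genes; the x axis is the distance from the start site in bases, and green blocks stand above the line for the strand of the gene and below it for the opposite strand. Every gene has an ISRE-like match between 77 and 15 bases before its start site, and in 4 IRG genes a GAS-like match stands just before it.

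The 54 bases shown for Igtp and Irgm2 sat at different distances from their start sites, the ISRE-like match beginning 34 bases before the start site of Igtp and 64 bases before that of Irgm2. When the 100 bases before the start site of Igtp were laid along the Irgm2 window at the shift of 30 bases that fitted best, 94 of 100 bases were the same. For Tgtp1 and Tgtp2 70 of 100 bases were the same without gaps, at a shift of 8. In the GENCODE annotation of the same build, the Gbp2 and Irgm1 stretches overlapped an annotated exon of their own gene, the Irgm2 and Tgtp1 stretches lay inside their own gene outside exons, the Tgtp1 and Tgtp2 stretches also lay inside the longer gene Olfr56, and the Igtp, Gbp3 and Gbp7 stretches lay outside annotated genes.

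The genes sit in clusters. Irgm1 (chr11:48861968-48871683, minus strand), Tgtp1 (chr11:48985327-48994172, minus strand) and Tgtp2 (chr11:49057194-49064206, minus strand) fall within 202 kb of each other. Igtp (chr11:58199556-58207591) and Irgm2 (chr11:58199618-58222782) overlap on the plus strand of the same chromosome and share 162 exonic bases. Gbp7 (chr3:142530342-142550149), Gbp3 (chr3:142560026-142573209) and Gbp2 (chr3:142620602-142638008) follow each other on the plus strand within 108 kb. Gbp6 (chr5:105270702-105293698, minus strand) and Iigp1 (chr18:60376029-60392627, plus strand) stand apart from these. Coordinates are those of the deposited table.

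The libraries held 16045724 to 16927742 counted fragments on genes, called reads below, and levels are given in FPKM, fragments scaled to gene length and library size. Mitochondrially encoded genes took 5.20% to 6.45% of the reads. Apela itself was at 5.27 and 4.57 FPKM in the WT pools and at 0.536 and 0.245 FPKM in the KO pools, so the labels and the targeted gene went together. Although the design text of the series names adipose tissue, the tubular marker Umod stood at 788 to 1133 FPKM in the 4 pools, and the 6 adipose markers summed to 1.43 FPKM in WT1, 0.385 FPKM in WT2, 8.27 FPKM in KO1 and 3.19 FPKM in KO2. Most of that sum in KO was the lipid droplet gene Cidec (1.37 and 0.282 FPKM in WT, 7.92 and 2.79 FPKM in KO), which with Plin1 (4 and 1 reads in WT, 27 and 9 in KO) was higher in both KO pools, whereas Adipoq was at 0 in WT1, WT2 and KO1 and had 6 reads in KO2. The part of these markers in the results was not tested. The strain is labelled C57BL/6 x 129S4/SvJae, whereas the study's methods name a C57BL/6 background.

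All 10 GTPase genes were lower in both KO pools than in both WT pools. Of the 15414 genes with a mean of at least 0.5 FPKM, 18.1% had both KO pools under both WT pools and 19.7% had both above; Tgtp2 was not among those 15414 genes. The median log2 fold change of the 9 members that passed this filter was −1.23 (KO minus WT on the log2(FPKM + 0.5) scale), and that of all genes tested was 0.01. Mean FPKM was at least 2 times lower in KO, with no overlap of pools, for 7 of these 9, against 1.85% of the genes tested. Since the set was chosen on this contrast, these counts describe the set and support nothing further.

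**Figure D2:**
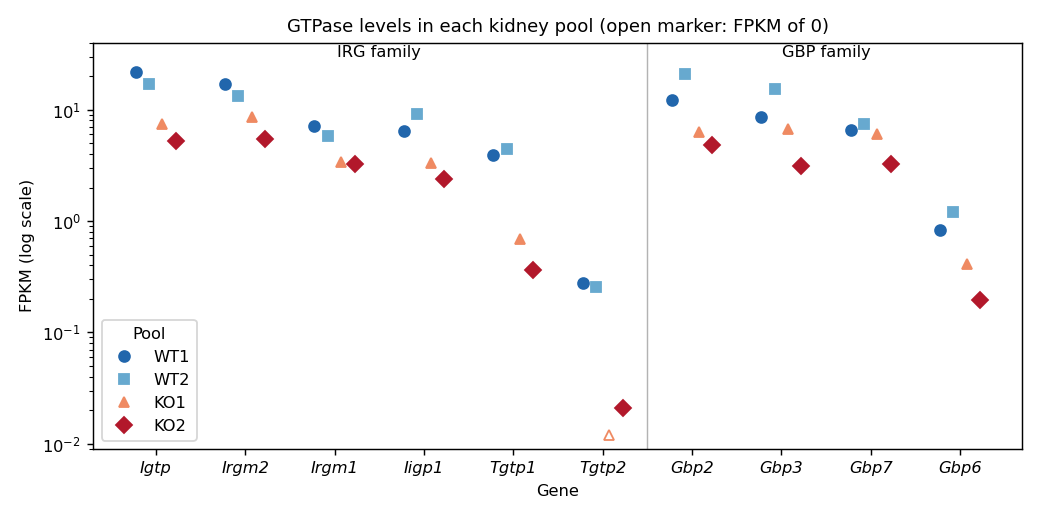
FPKM of each interferon-induced GTPase gene in the 4 kidney pools on a log axis; each marker is 1 pool of 3 mice (WT1 and WT2 in blues, KO1 and KO2 in orange and red), and the open marker is a pool at 0 FPKM, drawn at the foot of the axis. The KO markers lie under the WT markers for all 10 genes, narrowly for Gbp7 (6.11 FPKM in KO1 against 6.51 FPKM in WT1) and widely for Tgtp1 (0.690 FPKM in KO1 against 3.92 FPKM in WT1).

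The 3 regulators of the IRG family were the most abundant IRG genes together with Iigp1. Igtp, also called Irgm3, was at 21.7 FPKM in WT1, 16.9 FPKM in WT2, 7.51 FPKM in KO1 and 5.27 FPKM in KO2. Its mean was 19.3 ± 3.37 FPKM in WT and 6.39 ± 1.58 FPKM in KO (SD, n = 2), which is 3.02-fold lower. Its log2 fold change was −1.53 (SE 0.22, like every SE here moderated by limma with the variance of all genes tested). Igtp was thus the highest of the 10 genes in WT mean level. Irgm2 was at 17.0 FPKM in WT1, 13.2 FPKM in WT2, 8.62 FPKM in KO1 and 5.49 FPKM in KO2, 2.14-fold lower with a log2 fold change of −1.07 (SE 0.25). Irgm1 was at 7.15 FPKM in WT1, 5.84 FPKM in WT2, 3.36 FPKM in KO1 and 3.22 FPKM in KO2, 1.97-fold lower with a log2 fold change of −0.88 (SE 0.14). The KO pools of Irgm1 lay closest together among the 10 genes, with a ratio of KO1 to KO2 of 1.04, and in all 3 regulators WT1 was above WT2.

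The effectors differed more widely in level. Iigp1, which coats and disrupts pathogen vacuoles, was at 6.40 FPKM in WT1, 9.20 FPKM in WT2, 3.31 FPKM in KO1 and 2.39 FPKM in KO2. It was 2.74-fold lower in KO, with a log2 fold change of −1.30 (SE 0.24). Tgtp1, first described as a GTPase of T cells, was at 3.92 FPKM in WT1, 4.41 FPKM in WT2, 0.690 FPKM in KO1 and 0.365 FPKM in KO2. In reads these were 202 and 243 against 37 and 19, and the WT pools lay close to each other while both KO pools were far beneath them. The WT mean of Tgtp1 was 7.89-fold that of KO, and its log2 fold change of −2.20 (SE 0.22), the value on which the set was picked, was the 18th lowest among the genes tested. Its near-copy Tgtp2 was at 0.275 FPKM in WT1, 0.257 FPKM in WT2, 0 in KO1 and 0.0210 FPKM in KO2, from 13, 13, 0 and 1 reads. The KO read rate of Tgtp2 was 3.88% of that in WT, with an exact 95% interval from counting alone of 0.0947% to 23.6%. A count of 0 in KO1 allows up to 0.0610 FPKM (3 reads).

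Reads of Tgtp1 and Tgtp2 could not be told apart with certainty. The longest coding sequences of both are 1248 bases long and identical at 1244 positions (99.7%), and 80.0% of the 100-base windows of the Tgtp1 transcript occur unchanged in a Tgtp2 transcript. Summed over both genes, the level was 4.20 FPKM in WT1, 4.66 FPKM in WT2, 0.690 FPKM in KO1 and 0.386 FPKM in KO2, 8.23-fold lower in KO. The next nearest coding pair among the members was Gbp3 and Gbp7, at 76.5% identity, and Igtp and Irgm2 followed among the IRG genes at 67.9%. Gbp6 shared 82.9% of its 100-base windows with the overlapping gene model Gm43302, which itself held 0 to 2 reads per pool. How multiply mapped fragments were assigned is not given in the sources used here, so the level of Gbp6 is uncertain for this reason.

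Among the GBP genes, Gbp2 was at 12.2 FPKM in WT1, 20.7 FPKM in WT2, 6.27 FPKM in KO1 and 4.77 FPKM in KO2. Gbp2, a GBP that targets pathogen vacuoles and frees bacterial products for caspase sensing, was 2.98-fold lower in KO with a log2 fold change of −1.46 (SE 0.29). Gbp3 was at 8.56 FPKM in WT1, 15.3 FPKM in WT2, 6.66 FPKM in KO1 and 3.15 FPKM in KO2, 2.43-fold lower with a log2 fold change of −1.23 (SE 0.43). The SE of Gbp3 was the widest of the members, and without KO2 its log2 fold change was −0.74. Gbp7 was at 6.51 FPKM in WT1, 7.39 FPKM in WT2, 6.11 FPKM in KO1 and 3.23 FPKM in KO2. KO1 lay only 1.06 times under the lower WT pool, and the log2 fold change of Gbp7 of −0.58 (SE 0.30) became −0.17 without KO2 and −0.997 without KO1, so 1 library decided its size. Gbp6 was at 0.836 FPKM in WT1, 1.20 FPKM in WT2, 0.412 FPKM in KO1 and 0.197 FPKM in KO2, 3.35-fold lower on the FPKM scale. On the log2(FPKM + 0.5) scale this low gene changed by −0.92 (SE 0.28), where the added 0.5 understates the fold.

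The members of the IRG and GBP families differed in which WT pool was higher. The summed level of the 6 IRG genes was 56.4 FPKM in WT1, 49.8 FPKM in WT2, 23.5 FPKM in KO1 and 16.8 FPKM in KO2, 2.64-fold lower in KO. The summed level of the 4 GBP genes was 28.1 FPKM in WT1, 44.6 FPKM in WT2, 19.5 FPKM in KO1 and 11.3 FPKM in KO2, 2.36-fold lower in KO. WT2 exceeded WT1 in all 4 GBP genes but in only 2 of the 6 IRG genes, Iigp1 and Tgtp1, and with 1 pool of each kind this order was not tested. It did not extend to the IRG genes Gm12250 (1.51 FPKM in WT1, 3.29 FPKM in WT2) and Gm4951 (1.18 and 1.78 FPKM), which are not members. KO2 was lower than KO1 in 9 of the 10 genes, Tgtp2 being the exception with 1 read against 0. Ordered by WT mean, the levels per length ran Igtp, Gbp2, Irgm2, Gbp3, Iigp1, Gbp7, Irgm1, Tgtp1, Gbp6 and Tgtp2. Neighbours among the first 7 overlapped over the WT pools, whereas from Irgm1 to Tgtp1, Tgtp1 to Gbp6 and Gbp6 to Tgtp2 the WT pools did not overlap.

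Relatives of the IRG, GBP and other interferon-induced GTPase families outside the 10 numbered 19, of which 8 passed the filter. The pools of 5 of these 8 lay lower in KO without overlap, against 18.1% of all genes tested. The 5 were Gbp5, a GBP linked to inflammasome activity, the IRG genes Gm12250 and Gm4951, and the antiviral dynamin-like GTPases Mx1 and Mx2. Mx1 was at 0.478 and 1.37 FPKM in WT and at 0.295 and 0.118 FPKM in KO. Mx2 was at 0.465 and 1.06 FPKM in WT and at 0.397 and 0.239 FPKM in KO. Both were above 0.5 FPKM in WT2 alone and passed the filter through that pool, so the filter partly set their order. Gbp5 was at 1.37 and 3.10 FPKM in WT and at 1.04 and 0.455 FPKM in KO, with a log2 fold change of −1.09 (SE 0.42). Gm12250 had a log2 fold change of −0.997 (SE 0.37), Gm4951 of −0.86 (SE 0.27), Mx1 of −0.95 (SE 0.41) and Mx2 of −0.59 (SE 0.34). WT2 was the highest pool in each. Without WT2 the values were −0.62 for Gbp5, −0.54 for Gm12250, −0.64 for Gm4951, −0.48 for Mx1 and −0.25 for Mx2. The other 3 overlapped between groups. Gbp4 was at 1.03 and 1.54 FPKM in WT and 0.830 and 1.04 FPKM in KO, and Gbp9 was at 2.31 and 3.36 FPKM in WT and 2.51 and 2.63 FPKM in KO. Irgq, an IRG-like gene that lacks GTPase activity, was at 7.79 and 10.1 FPKM in WT and 9.07 and 9.25 FPKM in KO. Not all expressed relatives were therefore lower in KO, and the log2 fold changes of Gbp9 and Irgq changed sign without one or another WT pool. The median over the 8 relatives was −0.73, and −0.36 without WT2.

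**Figure D3:**
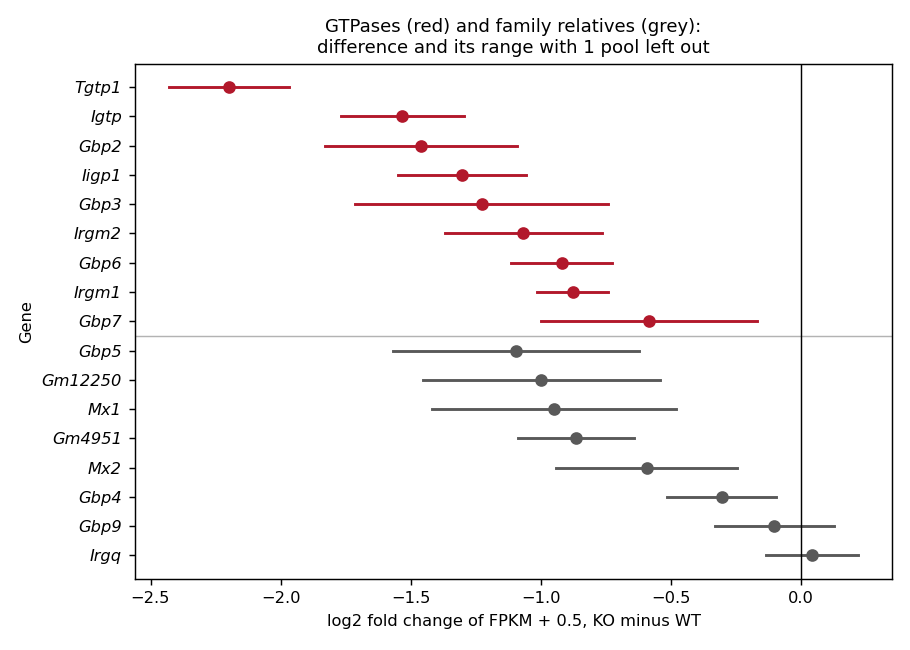
log2 fold change of FPKM + 0.5, KO minus WT, for the 9 interferon-induced GTPases (red) and the 8 family relatives (grey) that passed the filter; points are the 4-pool values and lines run from the lowest to the highest value with 1 pool left out. The points run from Tgtp1 at −2.20 to Gbp7 at −0.58 among the members, whose pools do not overlap, so that their lines cannot cross 0, and from Gbp5 at −1.09 to Irgq at 0.04 among the relatives.

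In the limma fit over all 15414 genes, 0 genes (0%) passed an adjusted p of 0.05 (Benjamini-Hochberg), the smallest adjusted p being 0.466. Without adjustment, 974 genes had p under 0.05, of which 507 were higher (3.29%) and 467 lower (3.03%) in KO, and limma with voom weights on the recovered reads gave 0 and 970. Under plain scaling of the reads to the library total, which moved the median log2 fold change of all genes to −0.06, the unadjusted split was 345 higher and 581 lower. These p-values measure only the spread between 2 pools per group, which limma moderates with the spread of all genes tested.

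Upstream of the GTPases, transcripts of interferons themselves were hardly detected. Of 13 genes for interferons and for cytokines that induce IFN-γ, 6 had 0 reads in every pool, and Ifng had 1 read, in WT1. Il18, a cytokine that promotes IFN-γ production and the 1 gene of these 13 that passed the filter, was at 1.39 and 1.30 FPKM in WT and at 1.16 and 1.97 FPKM in KO, which overlapped (log2 fold change 0.14, SE 0.25). No Ifnb1 read was found in any pool, which at 3 counts per library limits but does not exclude low expression. Of the 19 interferon receptor and signalling genes listed, 18 were tested. Both KO pools lay under both WT pools in 9 of these and above in 1, against 18.1% and 19.7% of all genes tested. The list's median log2 fold change was −0.20, and −0.05 without WT2. Ifngr1, the ligand-binding chain of the IFN-γ receptor, was at 29.0 and 32.5 FPKM in WT and at 41.7 and 31.7 FPKM in KO, and these overlapped. Jak1 was at 27.9 and 32.4 FPKM in WT and at 26.5 and 26.8 FPKM in KO, and Stat3 was at 23.3 and 23.9 FPKM in WT and at 25.4 and 25.2 FPKM in KO. The transcription factor gene Irf1 was lower in both KO pools. It was at 8.95 and 13.4 FPKM in WT and at 6.34 and 4.89 FPKM in KO, 1.99-fold lower with a log2 fold change of −0.92 (SE 0.24). In this list 0 genes passed the adjusted limma test in either direction, and 3 were lower and 0 higher at an unadjusted p under 0.05. Of all genes tested, 3.03% were lower and 3.29% higher at that threshold.

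Other interferon-induced genes lay lower in KO as well. Of 21 IFN-γ targets other than GTPases 17 were tested. Both KO pools lay under both WT pools in 16 of the 17, against 18.1% of all genes tested. The median log2 fold change of the 17 was −0.90, and −0.58 without WT2. The most abundant was B2m, the light chain of MHC class I, at 492 and 637 FPKM in WT and 416 and 272 FPKM in KO. The MHC class I heavy chains H2-D1 and H2-K1 followed, with log2 fold changes of −0.45 (SE 0.22) and −0.53 (SE 0.23). For these 2 genes the values were −0.26 and −0.31 without KO2, and −0.28 and −0.37 without WT2. Larger differences stood in the same list, in genes named after their values were seen. Cd74, the MHC class II invariant chain of antigen-presenting cells, was at 139 and 283 FPKM in WT and at 46.6 and 37.5 FPKM in KO (log2 fold change −2.23). The class II genes H2-Ab1, H2-Eb1 and H2-Aa had −2.16, −2.14 and −2.10. The chemokine Cxcl10 had −2.46, which was −1.63 without KO2 and −3.29 without KO1. Of 18 type I interferon targets 17 were tested, and 14 of these had both KO pools under both WT pools (median −0.86, and −0.52 without WT2). The most abundant was Bst2, which tethers budding virus to cells, at 34.2 and 62.0 FPKM in WT and 26.0 and 17.8 FPKM in KO. Ifit3 and Isg15 followed, with log2 fold changes of −0.98 (SE 0.24) and −1.21 (SE 0.37), and of −0.72 and −0.69 without WT2. By limma 0 genes of either list passed the adjusted test. Without adjustment, 11 IFN-γ targets and 10 type I targets were lower at p under 0.05 and 0 were higher. Of all genes tested, 3.03% were lower and 3.29% higher at that threshold. Irf7, Usp18 and Socs1 each stand in 2 of these lists. Median log2 fold changes were thus below 0 in the members and in both target lists, and no test set one list against another.

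**Figure D4:**
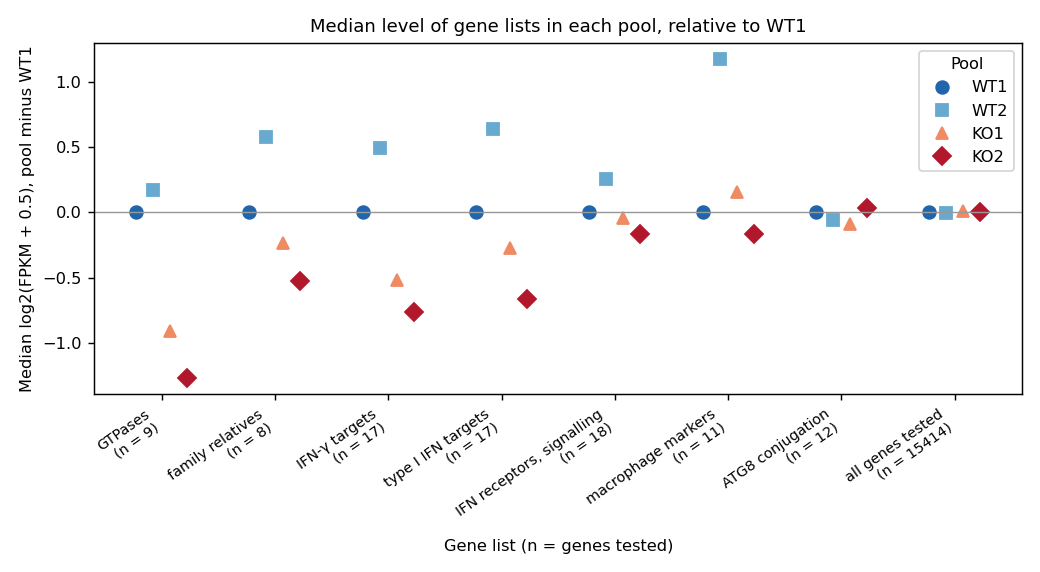
Median log2(FPKM + 0.5) of gene lists in each pool relative to WT1; each marker is the median over the tested genes of a list in 1 pool of 3 mice. The GTPases stand at 0.17 in WT2, −0.91 in KO1 and −1.27 in KO2, the macrophage markers at 1.18 in WT2, 0.15 in KO1 and −0.16 in KO2, and all genes tested lie within 0.02 of WT1.

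Markers of immune cells differed between the pools too. In whole kidney RNA, fewer cells of a type and less RNA per cell cannot be told apart. The summed level of 12 macrophage markers was 189 FPKM in WT1, 470 FPKM in WT2, 231 FPKM in KO1 and 221 FPKM in KO2, so WT2 stood apart at 2.49 times WT1. Of the 11 macrophage markers tested, 3 had both KO pools under both WT pools, against 18.1% of all genes tested. The median log2 fold change of the 11 was −0.62. Without WT2 this median was 0.03, against −1.06 for the members, and without WT1 it was −1.22 with 10 of 11 markers lower, against −1.36 for the members. It was −0.80 without KO1 and −0.52 without KO2. The members were chosen on this contrast, and the part of macrophage content in their difference was not tested.

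Lymphocyte markers were near the detection limit. The 9 T cell markers summed to 1.84 FPKM in WT1, 3.48 FPKM in WT2, 1.58 FPKM in KO1 and 1.28 FPKM in KO2, from 79, 142, 48 and 51 reads. Only 2 of the 9 passed the filter, of which 1 had both KO pools under both WT pools. Trac, the other of these 2, had 4 and 17 reads in WT and 15 and 6 reads in KO, which overlapped. Counted over all 9, past the filter or not, 6 had both KO pools under both WT pools, against 18.1% of the genes past the filter. No T cell marker had more than 44 reads in a pool. Cd3e and Cd2 were at 0 in 3 of the 4 pools, and Cd3g and Cd8b1 were at 0 in both KO pools. The 9 NK cell markers summed to 1.32 FPKM in WT1, 2.38 FPKM in WT2, 0.825 FPKM in KO1 and 0.830 FPKM in KO2, and 0 of the 9 passed the filter. Both KO pools were lower in FPKM for 4 of the 9. They were higher for Eomes (5 and 9 reads in WT, 16 and 12 in KO) and Klrb1c (0 and 2 reads in WT, 3 and 2 in KO). T cells and NK cells are the known sources of IFN-γ, and the part of their markers' difference in the lower GTPase levels was not tested. The 4 B cell markers summed to 1.04 and 1.49 FPKM in WT and 0.892 and 0.708 FPKM in KO. The summed levels of 6 neutrophil markers (9.91 and 21.5 FPKM in WT, 11.2 and 22.7 FPKM in KO, Ly6g and Mpo at 0 in all pools) and of 7 dendritic cell markers (2.87 and 4.10 FPKM in WT, 3.22 and 2.28 FPKM in KO) overlapped between the groups. None of the 10 endothelial markers had both KO pools under both WT pools, and 4 had both above. These orders held for 18.1% and 19.7% of all genes tested.

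Of the genes tested within 500 kb of the 5 loci, 6 of 42 outside the GTPase families (14.3%) had both KO pools under both WT pools, and 9 of 47 (19.1%) with the relatives Gbp4, Gbp5, Gbp9, Gm12250 and Gm4951 counted in, against 18.1% of all genes tested. At the loci on chromosomes 11, 3 and 5 there were 32 genes outside the families, of which 3 had both KO pools under both WT pools and 6 had both above, and their log2 fold changes ran from −0.66 to 0.39. Near Iigp1 10 such genes were tested, of which 3 had both KO pools lower and 4 had both higher. The lowest value there was that of Mir5107, chosen after its values were seen, at 1.41 and 3.30 FPKM in WT and listed at 0 in both KO pools. Mir5107 is a very short gene whose FPKM in WT rest on only a few reads, so its values are near the detection limit. The abundant IFN-γ target Cd74, with a log2 fold change of −2.23, was also among these 3 lower genes.

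The 5 genes whose centred log2 profile over the 4 pools lay nearest to the members' mean profile, among 13224 other genes with a symbol and a mean of at least 1 FPKM, were H3f3c, Gm25535, Gm20689, Rnf183 and Ankrd6. Their Euclidean distances ran from 0.11 for H3f3c to 0.28 for Ankrd6, against a median of 1.26 over the candidates. The members themselves lay at 0.26 (Iigp1) to 1.02 (Tgtp1) from their own mean, so the Tgtp1 profile was the least like the rest. H3f3c, a gene for a histone H3.3-like protein, was at 11.7 FPKM in WT1, 14.3 FPKM in WT2, 6.69 FPKM in KO1 and 4.94 FPKM in KO2. Gm25535 and Gm20689 are short genes counted from few reads, so their profiles carry a large counting error. With 4 points per profile, such nearness is a description only.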

How the data were processed

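Poly(A)-selected RNA of kidney pools (3 mice each, 2 pools per group) was sequenced by the authors. The deposited values are FPKM per gene, made by the authors. The submitters' processing notes name HISAT2 2.0.5 and the builds mm10 and GRCm38.p6, and the counting tool, its annotation and strand setting are not given in the sources used here. FPKM multiplied by gene length gave whole reads for 100% of values within 0.01 read, from which read totals were taken. The 10 genes and all gene lists were chosen with earlier results of these data known. limma 3.58.1 (R 4.3.3, lmFit and eBayes with trend, two-sided, Benjamini-Hochberg) was run on log2(FPKM + 0.5) for genes with a mean of at least 0.5 FPKM, with no covariate, after being tested on simulated data. For members and list genes, fold changes are ratios of mean FPKM and log2 fold changes are differences of mean log2(FPKM + 0.5). Each SE is the moderated standard error of the limma fit, not the spread of that gene's pools alone. The genes named are all 10 members, relatives of at least 0.5 FPKM, Ifng, Irf1, the up to 3 most abundant genes of the other pathway lists, and the 5 nearest profiles. For marker lists and neighbouring genes summaries are given. Further names (Umod, Adipoq, Cidec, Plin1, Ifnb1, markers at 0, Trac, Eomes, Klrb1c, Mir5107, Cxcl10, Cd74, MHC class II genes, and genes sharing exons with members) were added after their values were seen. Alternatives were other pseudocounts (0.1 and 1), filters, scalings and weights, a replicate block and each pool left out. Same-numbered pools did not deviate together (r = −0.0017 over 15414 genes), so replicate numbers were not used as pairs. The replicate pools differed beyond sampling noise (chi-square per gene 31.5 in WT and 24.5 in KO). Intervals and floors cover counting error only. Promoters are RefSeq windows of GRCm38.p6, and transcripts and exons are from GENCODE for the same assembly. Iigp1 has other gene bounds there than in the table. Alignments used Biopython 1.88. A further gene that the naming rule takes is not reported here.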

Additional observations from a re-analysis of the deposited data

How the results depend on the processing

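The count of 10 members lower in both KO pools was also 10 under quantile normalization (Tgtp2, below the filter, kept its deposited values there) and plain scaling to the read total. Since no member overlapped between groups, leaving out a pool or Tgtp1, or summing Tgtp1 and Tgtp2, could not give another outcome. The members' median log2 fold change of −1.23 ranged from −0.85 (without KO2) to −1.502 (without KO1) and was −1.15 without Tgtp1, an alternative chosen after seeing the data. The log2 fold change of Tgtp1 ran from −1.76 with a pseudocount of 1 to −3.02 with voom weights. limma called 0 genes at an adjusted p of 0.05 in every alternative, including a range of 0 to 0 with each pool left out and 0 with the replicate block, and 974 at an unadjusted p under 0.05. That unadjusted count was 932 with the replicate block and 1538 with no filter. Unadjusted counts with a pool left out are not given, because the lone pool is then assumed to vary like the pools of the other group. With 2 pools per group, depth limits Tgtp2, at 0 to 13 reads per pool, and the lymphocyte markers.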

Other observations

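Genes that act with the GTPases on membranes were measured as well. The ATG8 conjugation system directs IRG and GBP proteins to their target membranes. A list of 12 genes of this system, its ATG8 proteins and the cargo receptor Sqstm1, all tested, had 2 genes with both KO pools under both WT pools and 2 with both above, against 18.1% and 19.7% of all genes tested, with a median log2 fold change of −0.02. The most abundant were Sqstm1 (191 and 222 FPKM in WT, 163 and 204 FPKM in KO), Gabarapl1 (196 and 148 FPKM in WT, 161 and 178 FPKM in KO) and Gabarap (158 and 162 FPKM in WT, 143 and 164 FPKM in KO), and each overlapped between groups. Of 8 inflammasome genes, some of which sense products freed by GBP proteins, 7 were tested and 2 had both KO pools lower. Gsdmd, the pore former of pyroptosis, was at 3.77 and 5.75 FPKM in WT and at 3.19 and 2.75 FPKM in KO, without overlap. Pycard was at 3.37 and 3.35 FPKM in WT and at 3.40 and 3.18 FPKM in KO, and Casp1 was at 1.08 and 2.80 FPKM in WT and at 1.20 and 0.987 FPKM in KO, both with overlap. By limma 0 of the tested genes in these 2 lists passed the adjusted test, and 0 had an unadjusted p under 0.05.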
